A study of Bos taurus with 8 samples.

Results

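The genes examined here encode the core of WNT signaling: the secreted WNT ligands, the proteins that lipidate and export them, the Frizzled receptors and their LRP co-receptors, secreted antagonists, the Dishevelled transducers, the complex that degrades beta-catenin, and beta-catenin with the TCF/LEF factors it binds. They were chosen by gene symbol, with earlier results of these data known. The symbols taken were those on the array that begin with WNT, FZD or DKK and a digit, or with SFRP, AXIN, TCF7, DVL or GSK3. LEF1, APC, CTNNB1, LRP5, LRP6, PORCN, WIF1 and WLS were taken as well. In all, 51 genes were found among 15229 genes with a symbol. Of these, 50 were found under their own symbol and WLS under its older symbol GPR177. GSK3B, WNT4, WNT7B and FZD6 were not found under a symbol on the array and were not analysed here. Where a gene had several probes (4 of the 51), the one with the highest mean intensity stood for it.

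WNT proteins are secreted, lipid-modified signals. In the canonical pathway, cytoplasmic beta-catenin is held by a complex of AXIN, APC, GSK3 and casein kinase that marks it for destruction. Binding of a WNT to a Frizzled receptor and an LRP5 or LRP6 co-receptor inhibits that complex through Dishevelled, and beta-catenin then accumulates, enters the nucleus and acts with TCF/LEF factors on target genes. A separate pool of beta-catenin links cadherins to the actin cytoskeleton at the junctions between cells. In mammalian blastocysts, the inner cell mass (ICM) gives rise to the epiblast and hypoblast, and the trophectoderm (TE) is the outer epithelium that later forms the placenta. In mouse and human stem cells derived from the epiblast, WNT signaling is known for its influence on the pluripotent state.

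The study compared ICM and TE of Holstein blastocysts that had developed in vivo in superovulated, inseminated cows and were flushed from the uterus at day 7.5 post insemination. Expanded blastocysts were cut with a micro scalpel to give TE alone and pieces holding both tissues, and TE cells of the latter were lysed with antiserum and complement to leave ICM. Tissue was pooled into 4 ICM and 4 TE pools, and their RNA was amplified by in vitro transcription, labelled with Cy3 and Cy5 and hybridized in 4 pool pairs. Each pair was measured on 2 two-color EmbryoGENE arrays with the dyes exchanged, giving 8 arrays and 16 channels. The sources used here do not say whether each pool had cows of its own, so p-values measure only the spread between these 4 pool pairs. All arrays of one dye orientation lay on 1 slide, and slide and orientation therefore cannot be told apart.

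The sample labels name the tissue of each dye, and signs taken from them run against those of the study, which gives the pluripotency factor NANOG as higher in ICM. Here NANOG was lower in the ICM-labelled RNA, with log2 ratios over the TE-labelled RNA of -4.22 to -3.004 in the 4 pool pairs (mean -3.56, SE 0.20, adjusted p = 0.000792 from limma). All 9 epiblast markers measured were lower in the ICM-labelled RNA, and their mean normalized log2 intensity was 9.46 to 9.82 in the 4 pools labelled ICM against 10.9 to 11.4 in those labelled TE. Of 12 trophoblast markers, 10 were higher in the ICM-labelled RNA, with a mean of 11.8 to 12.1 against 10.8 to 11.0. Of 7 hypoblast markers 3 were lower and none was higher, with a mean of 10.1 to 10.4 against 11.1 to 11.3. All values are accordingly given by label, and every sign below turns if the labels are exchanged. Markers of maternal blood and uterine cells had a mean of 7.68 to 8.06 in the pools labelled ICM and 7.68 to 8.13 in those labelled TE. Of these 10 markers, COL1A2 was higher at 1.30 and CD68 lower at -1.91, which is 20% called against 20.4% of all genes with a symbol. The other 8 were not called, among them the collagens COL1A1 (-0.03) and COL3A1 (0.03). PTPRC (0.19) was above the limit given below on all 16 channels, COL3A1 on 1 and PAEP on none. The epiblast, hypoblast and trophoblast levels differed between the labels without overlap of the pools. Their part in the values below was not tested, and fewer cells of a type cannot be told apart from less RNA per cell.

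Of the 51 genes, 9 differed between the labels with an adjusted p of at most 0.05 (limma on 4 pool pairs, Benjamini-Hochberg over 43794 probes), against 20.4% of all genes with a symbol. WLS, CTNNB1, WNT6, WNT2B and WNT9B were higher in the ICM-labelled RNA, and FZD10, WNT16, FZD3 and AXIN2 were lower. These are 5 higher and 4 lower genes, against 11.2% of all genes with a symbol called higher and 9.21% called lower. The median log2 fold change of the 51 genes was 0.01, as was that of all genes with a symbol. Of the 51 values, 29 were positive and 22 negative, with 10 genes at background on all channels included. Of all genes with a symbol, 8372 had positive and 6857 negative values. With median centring in place of loess, 6 members were called higher and 0 lower, and 8.7% of all probes were called, against 14.6% with loess. FZD10, WNT16, FZD3 and AXIN2 then had log2 fold changes of -0.40, -0.32, -0.20 and -0.10. The genes nearest the threshold were WNT2B (adjusted p = 0.0409) on the inside and APC (adjusted p = 0.0722) on the outside.

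**Figure D1:**
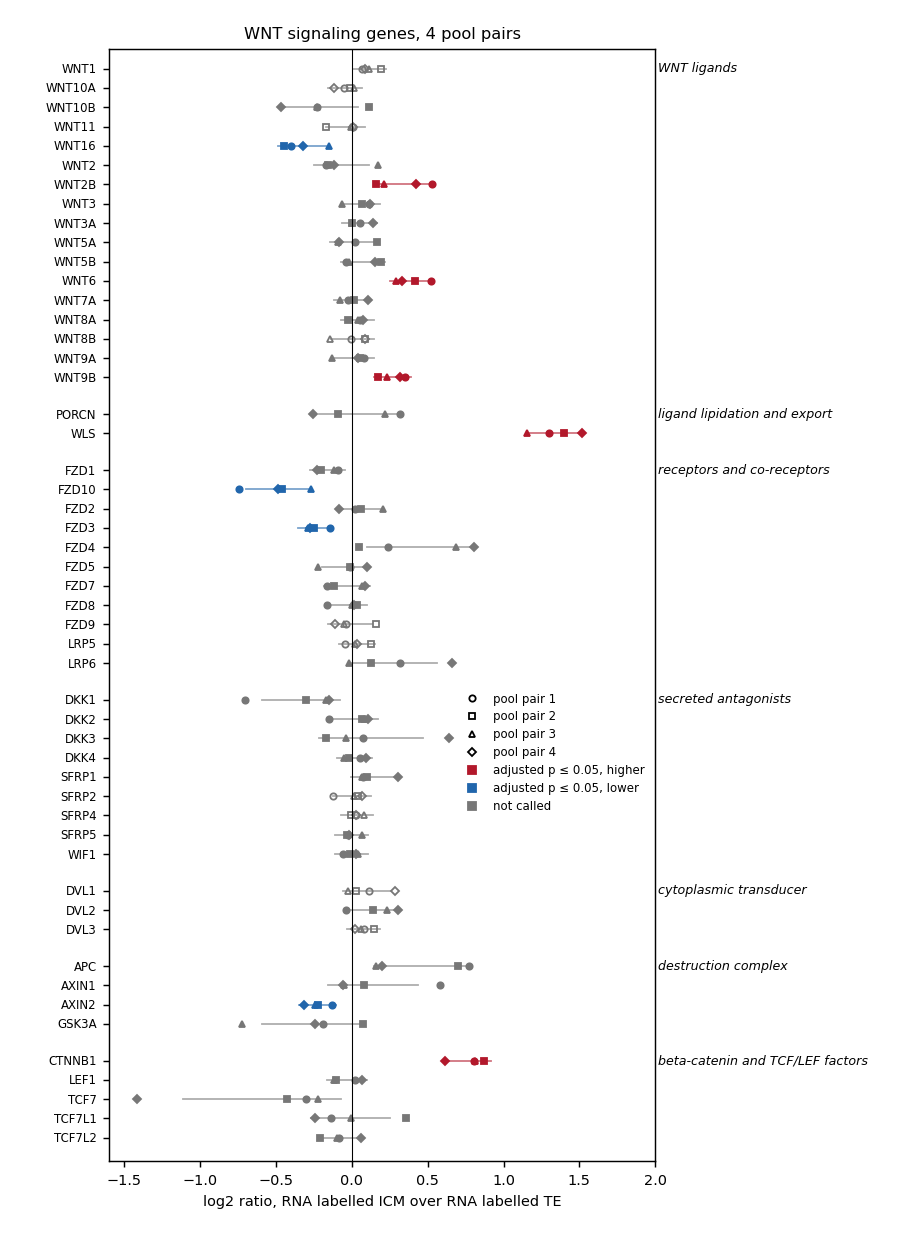
Log2 ratio of the ICM-labelled RNA over the TE-labelled RNA (x axis) of each of the 51 WNT signaling genes (rows, grouped by role), with 1 symbol for each of 4 pool pairs and a line for the 95% confidence interval of the mean; open symbols mark the 10 genes with no channel above the negative controls, whose ratios compare signals at background. WLS and CTNNB1 lie farthest to the right with all 4 pool pairs together, and most ligands and antagonists lie around 0.

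Many of the genes gave little signal. The limit for a measurable signal was set, channel by channel, at 2 SD over the mean of the 153 negative control spots, and 48.1% to 65.5% of all probes lay above it. For 17 of the 51 genes the probe was above this limit on all 16 channels (33.3%, against 50.7% of all genes with a symbol). For 10 of them it was above it on none (19.6%, against 13.9%). These 10 were the ligands WNT1, WNT10A, WNT11 and WNT8B, the receptor FZD9, the co-receptor LRP5, the antagonists SFRP2 and SFRP4, and the transducers DVL1 and DVL3, and no mean fold is given for them, since their ratios compare signals at background. A further 5 genes, WNT2, WNT3, WNT5A, FZD5 and WIF1, were above it on 1 or 2 channels of a single label and have only a bound on the other.

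Calls followed brightness on this array. Among all genes with a symbol, ordered by mean intensity and cut into 4 bins of equal size, 0.840% were called in the dimmest bin, 4.10% in the next, 30.3% in the one after and 46.4% in the brightest. From the dimmest to the brightest bin the WNT signaling genes numbered 16, 18, 12 and 5, and 0, 2, 6 and 1 of these were called. The single called gene of the brightest bin was CTNNB1, where LRP6, DVL2, AXIN1 and APC were not called.

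**Figure D2:**
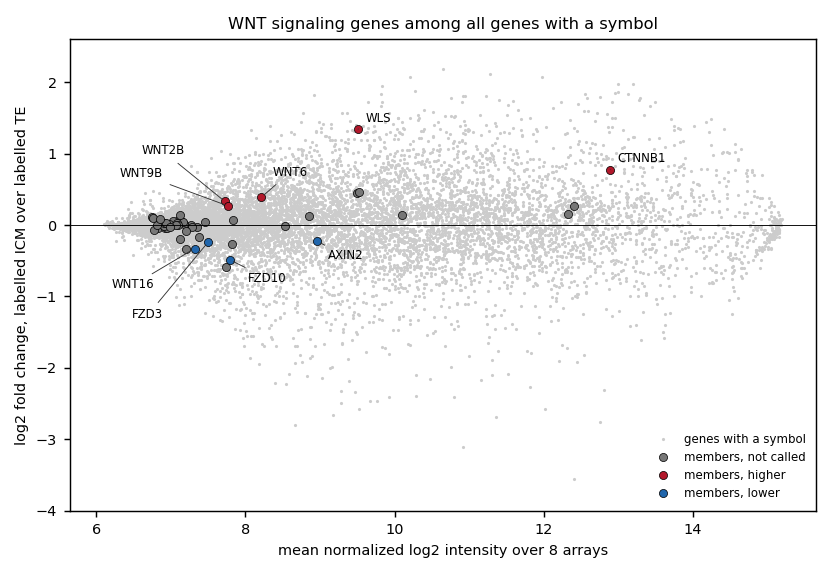
Log2 fold change of the ICM-labelled RNA over the TE-labelled RNA (y axis) against the mean normalized log2 intensity over 8 arrays (x axis) for all 15229 genes with a symbol (grey dots) and the 51 WNT signaling genes (circles, red where higher, blue where lower, dark grey where not called). Most WNT signaling genes crowd at the dim end near a fold change of 0, while WLS stands apart at 1.34 and CTNNB1 at 0.78 among bright genes.

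Among the ligands, 3 of 17 were higher in the ICM-labelled RNA and 1 was lower, which is 23.5% called against 20.4% of all genes with a symbol. WNT6, a ligand expressed in epithelia of mouse embryos, had normalized log2 intensities of 8.14, 8.67, 8.48 and 8.33 in pools 1 to 4 labelled ICM and of 7.62, 8.26, 8.19 and 8.003 in those labelled TE. The levels of the labels overlapped between pools, but within every pool pair the ICM-labelled level was the higher one. The log2 ratios were 0.52, 0.42, 0.29 and 0.33, with a mean of 0.39 (SE 0.06, n = 4 pool pairs, adjusted p = 0.00944 from limma), and they were positive on 8 of 8 arrays. The other WNT6 probe, above the limit on 1 channel of each label, gave -0.02 on the log2 scale (adjusted p = 0.901). The mean over both probes was 0.19 (adjusted p = 0.0561), which ends the call.

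WNT2B had levels of 8.15, 7.59, 7.80 and 8.02 in the ICM-labelled RNA and 7.62, 7.42, 7.58 and 7.60 in the TE-labelled RNA. Pool pairs 1 and 4 showed the larger differences, with log2 ratios of 0.53 and 0.42, and pool pairs 2 and 3 the smaller, with 0.16 and 0.21. The mean was 0.33 (SE 0.08, adjusted p = 0.0409 from limma). WNT9B had levels of 7.76, 7.96, 7.81 and 8.07 in the ICM-labelled RNA and 7.42, 7.79, 7.57 and 7.75 in the TE-labelled RNA, which overlapped between pools in the same way. Its log2 ratios were 0.35, 0.17, 0.23 and 0.32 (mean 0.27, SE 0.05, adjusted p = 0.0217), positive on 7 of 8 arrays. Neither call was stable to the loss of a pool pair. WNT2B had adjusted p-values of 0.0875, 0.0602, 0.0935 and 0.139 without pool pairs 1, 2, 3 and 4, and WNT9B of 0.0654, 0.0798 and 0.0768 without pool pairs 1, 3 and 4, while the log2 fold changes were 0.27 to 0.39 and 0.24 to 0.28.

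WNT16 was the 1 ligand that was lower in the ICM-labelled RNA. Its levels were 7.19, 7.12, 7.27 and 7.04 there and 7.59, 7.56, 7.42 and 7.36 in the TE-labelled RNA, and the 4 levels of one label did not overlap those of the other. It was above the limit on 8 of 8 channels labelled TE and on 1 of 8 labelled ICM, so its level in the ICM-labelled RNA is close to background. In the 4 pool pairs the log2 ratio was -0.40, -0.44, -0.15 and -0.32 (mean -0.33, SE 0.06, adjusted p = 0.0231 from limma), negative on 8 of 8 arrays. The call was lost without pool pair 1, 2 or 4 (adjusted p = 0.0654, 0.0917 and 0.0788), with log2 fold changes of -0.30, -0.29 and -0.33.

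The other 13 ligands were not called. WNT5B and WNT8A were above the limit on all 16 channels and differed by 0.07 (SE 0.06) and 0.04 (SE 0.04) on the log2 scale. WNT10B, on 9 channels, had -0.20 (SE 0.10, adjusted p = 0.291), while WNT3A, WNT7A and WNT9A lay between 0.00 and 0.05.

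WLS showed the largest difference among the 51 genes. It encodes the carrier that takes lipidated WNT proteins from the secretory pathway to the cell surface. Its levels were 10.40, 10.35, 9.68 and 10.29 in pools 1 to 4 labelled ICM and 9.10, 8.95, 8.52 and 8.78 in those labelled TE. Every ICM-labelled level was above every TE-labelled one. The log2 ratios were 1.30, 1.40, 1.16 and 1.52, with a mean of 1.34 (95% interval 1.17 to 1.52, SE 0.07, adjusted p = 0.000677 from limma), or 2.54-fold higher in the ICM-labelled RNA. On single arrays the log2 ratio ran from 0.98 to 1.57. PORCN, the acyltransferase that attaches the lipid, was above the limit on 3 channels labelled ICM and 5 labelled TE. Its log2 ratios of 0.32, -0.09, 0.22 and -0.25 had no common sign, and the mean was 0.05 (95% interval -0.22 to 0.31, adjusted p = 0.869).

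**Figure D3:**
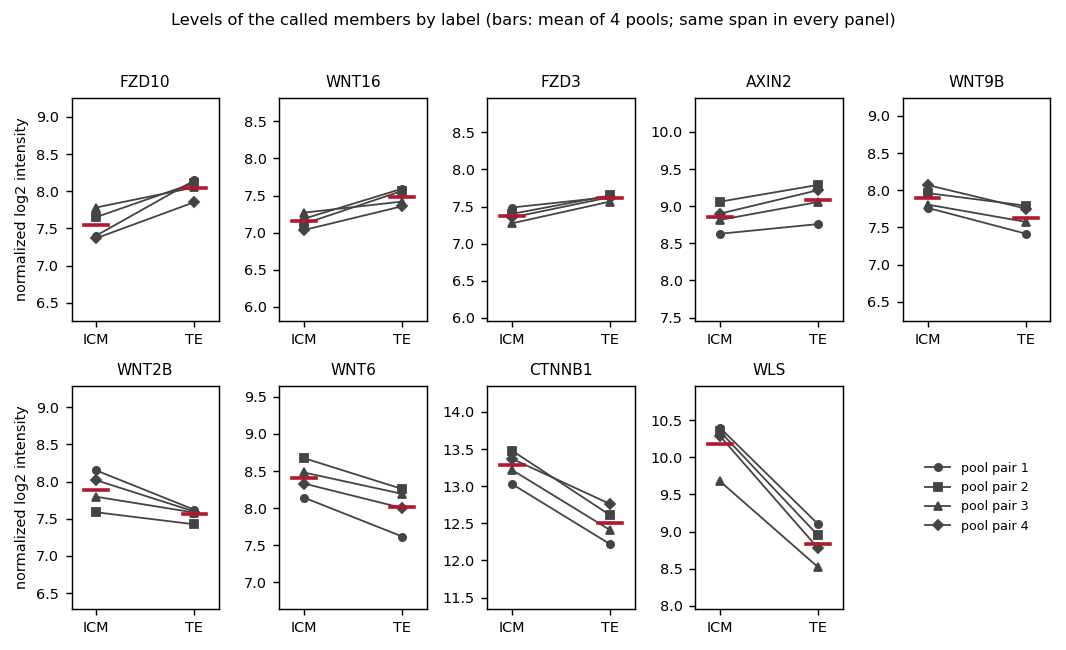
Normalized log2 intensity (y axis, with the same span in every panel) of the 9 called genes in the ICM-labelled RNA and the TE-labelled RNA, with a line joining the levels of each of 4 pool pairs and a red bar at the mean of 4 pools. The lines of each gene all slope the same way, and the ICM and TE levels are fully apart for WLS, CTNNB1, FZD10, WNT16 and FZD3.

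Of 11 receptors and co-receptors, 2 were called (18.2%, against 20.4% of all genes with a symbol), and both were lower in the ICM-labelled RNA. FZD10, a Frizzled receptor, had levels of 7.40, 7.65, 7.78 and 7.37 there and of 8.14, 8.11, 8.05 and 7.85 in the TE-labelled RNA, without overlap. The log2 ratios were -0.74, -0.46, -0.27 and -0.49, with a mean of -0.49 (SE 0.08, adjusted p = 0.0154 from limma), a 1.41-fold lower level, and the ratio was negative on 8 of 8 arrays. Without pool pair 2 or 4 the adjusted p was 0.0609 and 0.0623, and the log2 fold change -0.50 and -0.49.

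FZD3, a Frizzled receptor known for its part in axon guidance and planar polarity in mice, had levels of 7.49, 7.40, 7.27 and 7.35 in the ICM-labelled RNA and 7.63, 7.65, 7.57 and 7.63 in the TE-labelled RNA. The labels did not overlap, although the differences were small. Its log2 ratios came to -0.14, -0.25, -0.29 and -0.27 (mean -0.24, SE 0.05, adjusted p = 0.0258 from limma). The call was lost without pool pair 2, 3 or 4 (adjusted p = 0.102, 0.109 and 0.0863), with log2 fold changes of -0.24, -0.22 and -0.23.

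The receptor FZD4 had the widest spread of the Frizzled genes. Its levels were 10.92, 9.43, 9.17 and 9.34 in the ICM-labelled RNA and 10.68, 9.38, 8.48 and 8.54 in the TE-labelled RNA, so pool pair 1 was bright under both labels. Its pool pairs had log2 ratios of 0.24, 0.04, 0.69 and 0.80 (mean 0.44, SE 0.14, adjusted p = 0.106), with 0.71 in the Cy5 orientation (adjusted p = 0.00482) and 0.18 in the Cy3 orientation. FZD1 had log2 ratios of -0.09, -0.20, -0.12 and -0.23 (mean -0.16, SE 0.05, adjusted p = 0.0865), and its levels of 7.28 to 7.32 in the ICM-labelled RNA did not overlap those of 7.40 to 7.56 in the TE-labelled RNA. Neither passed the threshold. FZD2, FZD7 and FZD8 had log2 fold changes between -0.03 and 0.05.

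The co-receptor LRP6 was bright, with levels of 12.47, 12.83, 12.36 and 12.50 in the ICM-labelled RNA and 12.16, 12.70, 12.37 and 11.84 in the TE-labelled RNA. Its log2 ratios were 0.32, 0.13, -0.02 and 0.66, and pool pair 4 differed most. The mean was 0.27 (95% interval -0.02 to 0.56, adjusted p = 0.224 from limma), which includes 0. LRP5 was on no channel above the limit.

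None of the 9 secreted antagonists was called, against 20.4% of all genes with a symbol. The probes of 7 of the 9 were above the limit on fewer than 8 of 16 channels, so the lack of calls is no measure of likeness there. DKK1, which blocks LRP co-receptors, came nearest. Its levels were 6.73, 7.12, 7.08 and 7.24 in the ICM-labelled RNA and 7.43, 7.42, 7.26 and 7.40 in the TE-labelled RNA, without overlap, and it was above the limit on 3 of 8 channels labelled ICM and 8 of 8 labelled TE. Pool pair 1 had the largest log2 ratio, -0.71, and the others -0.30, -0.17 and -0.15 (mean -0.33, SE 0.10, adjusted p = 0.103). DKK1 passed the threshold with the deposited log2 ratios (-0.55, adjusted p = 0.00665) and with all 8 arrays in 1 fit with the replicate block (adjusted p = 0.0195, or 0.0369 with a dye term). DKK3 was the 1 antagonist above the limit on all 16 channels. Its levels ran from 7.20 in pool 3 to 10.33 in pool 1 in the ICM-labelled RNA and from 7.24 to 10.26 in the TE-labelled RNA, so it varied between pools far more than between labels (log2 fold change 0.13, SE 0.14, adjusted p = 0.695). DKK2, DKK4, SFRP1 and SFRP5 were above the limit on 3 to 7 channels and had log2 fold changes from 0.00 to 0.14 in size.

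In the cytoplasm, DVL2, which passes the signal from the receptor to the destruction complex, was measured on all 16 channels. Its log2 ratios were -0.04, 0.14, 0.23 and 0.30 (mean 0.16, SE 0.07, adjusted p = 0.230). Of the destruction complex, AXIN2 was lower in the ICM-labelled RNA. AXIN2 is a scaffold of the complex and also a widely used target gene of the canonical pathway. Its levels were 8.63, 9.06, 8.82 and 8.90 in the ICM-labelled RNA and 8.76, 9.29, 9.06 and 9.21 in the TE-labelled RNA. The labels overlapped between pools, but the TE-labelled level was higher in each pair. The log2 ratios were -0.13, -0.23, -0.24 and -0.32 (mean -0.23, SE 0.05, adjusted p = 0.0334 from limma), a 1.17-fold lower level. The call was lost without pool pair 2, 3 or 4 (adjusted p = 0.118, 0.126 and 0.100; log2 fold changes of -0.23, -0.22 and -0.20) and with median centring in place of loess (log2 fold change -0.10, adjusted p = 0.611).

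APC, the large scaffold that binds beta-catenin in the complex, had levels of 9.99, 9.57, 9.46 and 9.97 in the ICM-labelled RNA and 9.21, 8.87, 9.30 and 9.77 in the TE-labelled RNA. Pool pairs 1 and 2 differed by 0.77 and 0.70 and pool pairs 3 and 4 by 0.16 and 0.20 on the log2 scale. The mean was 0.46 (SE 0.12, adjusted p = 0.0722 from limma), positive on 8 of 8 arrays but not past the threshold, which it passed with median centring (0.61, adjusted p = 0.0296). The other 2 APC probes had log2 fold changes of 0.20 and 0.04. AXIN1 (log2 fold change 0.14, SE 0.12) and the kinase GSK3A (-0.27, SE 0.13, adjusted p = 0.286) were above the limit on all channels and not called.

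CTNNB1, which encodes beta-catenin, was higher in the ICM-labelled RNA. Its levels were 13.03, 13.48, 13.22 and 13.37 in pools 1 to 4 labelled ICM and 12.22, 12.61, 12.41 and 12.76 in those labelled TE. The 4 levels of the labels did not overlap, and each pair differed by a similar amount, with log2 ratios of 0.81, 0.87, 0.81 and 0.61. The mean was 0.78 (95% interval 0.63 to 0.92, SE 0.06, adjusted p = 0.00155 from limma), a 1.71-fold higher level. The array measures RNA, and neither the amount of the protein nor its place in the cell was measured.

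The TCF/LEF factors did not pass the test. LEF1 was above the limit on 1 channel of each label, with log2 ratios of 0.02, -0.11, -0.12 and 0.07 (mean -0.03, SE 0.05, adjusted p = 0.800), so a difference in LEF1 was not measurable at this signal. TCF7 had log2 ratios of -0.31, -0.43, -0.23 and -1.42, all negative, but pool pair 4 lay far below the others and the mean of -0.59 (SE 0.21) had an adjusted p of 0.144. Without pool pair 4, TCF7 passed the threshold (-0.32, adjusted p = 0.0494). TCF7L1 was above the limit on all 16 channels, with a log2 fold change of -0.01 (95% interval -0.27 to 0.25), and TCF7L2, above it on 10, had -0.08 (SE 0.06).

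Across the 51 genes, the 4 levels of one label lay entirely above the 4 of the other for 7, namely WLS, CTNNB1, FZD10, FZD3, WNT16, FZD1 and DKK1. The same held for 17.7% of all genes with a symbol.

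The dye orientations gave different sizes for some genes. CTNNB1 had log2 ratios of 1.19, 1.13, 1.20 and 0.85 on the 4 arrays with the ICM-labelled RNA in Cy5, and of 0.43, 0.62, 0.42 and 0.38 on those with it in Cy3. The means were 1.09 and 0.46, and CTNNB1 passed the threshold within either orientation. WLS had means of 1.48 and 1.20, WNT6 of 0.36 and 0.42, and FZD10 of -0.52 and -0.46, each with the same sign on both slides. WNT9B had 0.43 and 0.11 (adjusted p = 0.340 for the Cy3 orientation), and FZD3 had -0.11 (adjusted p = 0.369) and -0.37. PORCN turned its sign, with 0.35 with ICM in Cy5, where it was called higher, and -0.26 with ICM in Cy3, where it was not called. WNT9A turned its sign as well, at -0.24 (adjusted p = 0.0374) with ICM in Cy5 and 0.27 (adjusted p = 0.0491) with ICM in Cy3, and its mean over both was 0.01. Of the 9 called genes, 7 had the same sign on 8 of 8 arrays, and the exceptions were WNT9B and FZD3 with 1 array each. The genes were called on the mean of these same arrays, so the shared signs are no separate test of the calls.

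**Figure D4:**
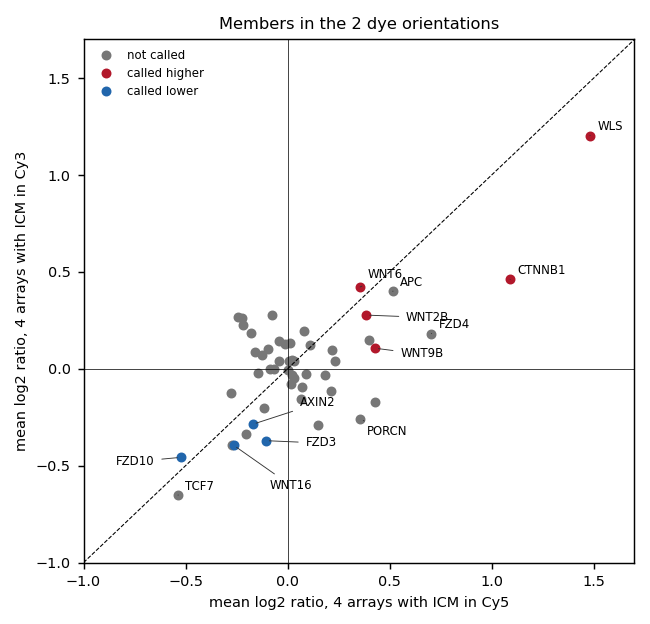
Mean log2 ratio of the ICM-labelled RNA over the TE-labelled RNA of each WNT signaling gene when ICM carried Cy5 (4 arrays, x axis) and when it carried Cy3 (4 arrays, y axis), with the line of equal values dashed. All 9 called genes have the same sign on both axes, with CTNNB1 the farthest of them from the line (1.09 and 0.46), and PORCN is among those in the quadrants of opposite signs. The calls rest on the mean of these same orientations, so the shared sign is no separate test of them.

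Other genes of the pathway were described from lists of its regulators, cofactors and usual targets, of which 87 of 96 were measured (RSPO3 is also among the hypoblast markers). Of these, 6 were higher and 11 lower in the ICM-labelled RNA by the same limma test, which is 19.5% and close to the 20.4% of all genes. Their median log2 fold change was -0.02. No gene of the R-spondin axis (7 with a probe), of the other extracellular and membrane proteins (13) or of the planar polarity branch (8) was called. In these lists 4, 7 and 3 genes were above the limit on fewer than 8 of 16 channels, and 2 in each list on none. Differences in genes at background were not measurable, so the lack of calls is no measure of likeness there. The genes of smallest p in these lists were LGR4, an R-spondin receptor (0.24, adjusted p = 0.101), APCDD1, a membrane inhibitor of WNT signaling (-0.90, adjusted p = 0.0615), and INVS, which acts between the canonical and polarity branches (0.38, adjusted p = 0.0569).

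Among 22 cytoplasmic regulators, DACT1, which binds Dishevelled, was higher in the ICM-labelled RNA, with log2 ratios of 1.79, 1.18, 0.58 and 0.70 (mean 1.06, SE 0.21, adjusted p = 0.0246). Without pool pair 2 or 4 its adjusted p was 0.0965 and 0.0571, at 1.02 and 1.18. The catalytic subunits of casein kinase 2 went opposite ways, with CSNK2A2 lower (-0.49, SE 0.05, adjusted p = 0.00315; 1 of 2 probes called; -0.31 and adjusted p = 0.128 with median centring) and CSNK2A1 higher (0.29, SE 0.07, adjusted p = 0.0423). Without pool pair 1, 2 or 3, CSNK2A1 lost its call (adjusted p = 0.0910, 0.122 and 0.147, at 0.30, 0.23 and 0.29). It had 0.44 with ICM in Cy5 and 0.14 (adjusted p = 0.322) with ICM in Cy3. With the deposited ratios it had 0.28 (adjusted p = 0.154), and its call was kept under 7 of 16 other settings. SIAH1, CSNK1G3, PPP2R5E and PPP2R1A came next, with log2 fold changes of -0.40, -0.45, -0.46 and -0.22 that did not pass.

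Of 17 nuclear cofactors, 4 were lower and 2 higher, which is 35.3% called against 20.4% of all genes with a symbol. The probes of 12 were above the limit on all 16 channels (70.6%, against 50.7%). Whether the list differs from other genes was not tested. RUVBL2, an ATPase that binds beta-catenin, had log2 ratios between -0.72 and -0.89 (mean -0.78, SE 0.05, adjusted p = 0.00101). The coactivator CREBBP had -0.68 (SE 0.06, adjusted p = 0.00278) and the corepressor CTBP2 had -0.71 (SE 0.07, adjusted p = 0.00278; 3 of 3 probes called). With median centring in place of loess, CTBP2 was at -0.51 and lost its call (adjusted p = 0.111). The Groucho-type corepressors, which bind TCF/LEF factors in the absence of beta-catenin, did not move one way. TLE3 was higher (0.72, SE 0.07, adjusted p = 0.00283; 2 of 4 probes called), TLE1 was higher (0.58, SE 0.08, adjusted p = 0.00820) and TLE4 was lower (-0.22, SE 0.05, adjusted p = 0.0472). Without any 1 of pool pairs 1 to 4, TLE4 lost its call (adjusted p = 0.136, 0.0615, 0.149 and 0.141), at -0.19 to -0.26. PYGO2 counted as not called by its brightest probe (-0.02, limma adjusted p = 0.935), while 1 of its 2 probes was called higher.

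Among 15 common target genes, 5 were lower and 1 was higher in the ICM-labelled RNA. This is 40% called, against 20.4% of all genes with a symbol (9.21% lower and 11.2% higher). Whether the list differs from other genes was not tested. ID2, an inhibitor of helix-loop-helix factors, had log2 ratios of -2.81, -0.90, -1.05 and -1.39 (mean -1.54, SE 0.32, adjusted p = 0.0322). FOSL1 and JUN, subunits of the AP-1 transcription factor, had -1.15 (SE 0.16, adjusted p = 0.00856) and -0.67 (SE 0.09, adjusted p = 0.00767), with JUN above the limit on 3 of 8 channels labelled ICM. SP5, a zinc finger factor, had -0.93 (SE 0.15, adjusted p = 0.0144; 6 of 8 channels labelled ICM), and TNFRSF19 had -0.22 (SE 0.04, adjusted p = 0.0252). TNFRSF19 was positive on 3 of 8 arrays, with -0.46 in the Cy5 orientation and 0.00978 (adjusted p = 0.933) in the Cy3 orientation, and it was at -0.03 (adjusted p = 0.926) with median centring in place of loess. PPARD, a nuclear receptor, was higher at 0.61 (SE 0.04, adjusted p = 0.00122), with log2 ratios between 0.57 and 0.64. The target genes CD44 and BMP4 were not called (log2 fold changes of -0.07 and -0.20). CCND1 was above the limit on 1 channel of each label and LGR5 on 1 channel labelled TE alone. Neither was called, and a difference in them was not measurable at this signal. Without pool pair 2, SP5 had an adjusted p of 0.0583 (-0.94), without pool pair 2, 3 or 4, ID2 had 0.0591, 0.0841 and 0.104 (-1.75, -1.70 and -1.59), and without any 1 of the pool pairs TNFRSF19 had 0.0749 to 0.0891 (-0.20 to -0.24).

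Of 7 cadherins and other catenins of cell junctions, CDH2, or N-cadherin, was lower in the ICM-labelled RNA. Its log2 ratios were -2.55, -2.23, -1.58 and -1.38 (mean -1.94, SE 0.20, adjusted p = 0.00399), and 1 of 3 probes was called. JUP, or plakoglobin, the close relative of beta-catenin in desmosomes, was higher, with 0.81, 0.67, 0.58 and 0.27 (mean 0.58, SE 0.09, adjusted p = 0.0133). JUP lost its call without pool pair 2 or 3 (adjusted p = 0.0610 and 0.0662, at 0.55 and 0.58). The epithelial cadherin CDH1 (0.01, SE 0.10), CDH3 (-0.32, SE 0.11, adjusted p = 0.135) and the alpha-catenins CTNNA1 (0.10, SE 0.05) and CTNNA2 (0.01, SE 0.06) were not called.

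**Figure D5:**
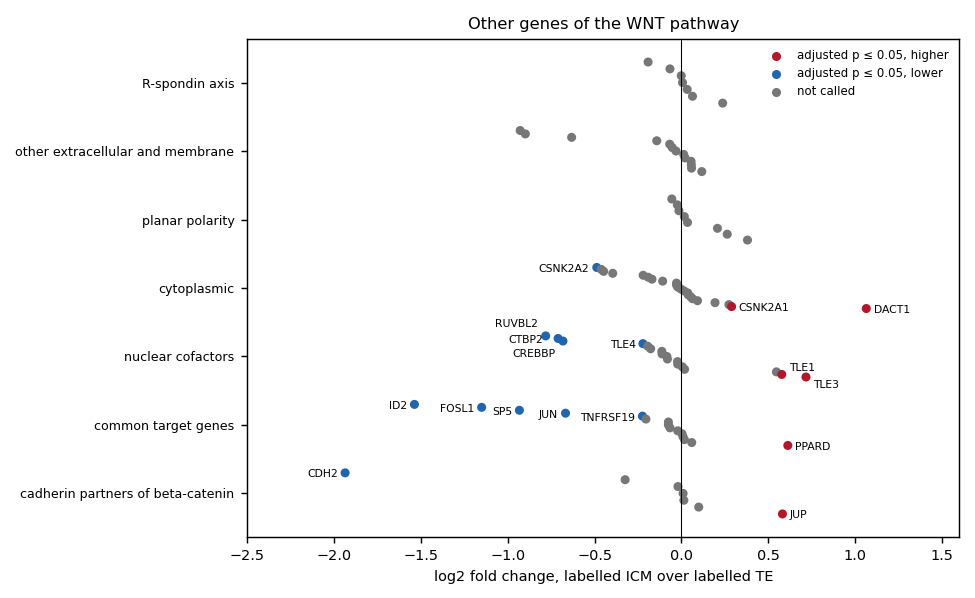
Log2 fold change of the ICM-labelled RNA over the TE-labelled RNA (x axis) of the 87 other genes of the pathway, each a point, in 7 lists (y axis), with called genes in red (higher) or blue (lower) and named. The called genes lie among the cytoplasmic regulators, nuclear cofactors, target genes and cadherin partners, from CDH2 at -1.94 to DACT1 at 1.06, and LGR5 and NKD1 each stand in 2 lists.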

How the data were processed

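RNA of 4 pool pairs of bovine ICM and TE was measured on 8 two-color arrays. The authors scanned the slides, extracted the features with Array-pro and deposited raw spot intensity and local background intensity of both channels, without correction; the count of ignored cells in each spot, another deposited value, marked 9 to 47 spots an array that were left out. A second deposited table holds log2 ratios that, per the methods, had the background subtracted before loess and quantile normalization; the submitters' processing notes name limma. Its scale and direction are not stated. Its columns followed Cy5 over Cy3 of the scanner files on the log2 scale (r = 0.785 to 0.896 over probes), had medians of -0.0257 to 0.00451 and was used only as an alternative.

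From 45220 spots, 43794 probes and 1426 controls, the mean intensities were background-corrected by normexp (offset 50, median local background), since plain subtraction leaves spots without a log. They were then normalized by loess with weight 0 for controls and by Aquantile, turned by the dye labels so that ICM is the numerator, and averaged within each pool pair. R 4.3.3 with limma 3.58.1 (lmFit, then eBayes) gave the two-sided test of the 4 pool pairs against 0, with Benjamini-Hochberg adjustment over 43794 probes. Genes are called higher or lower at an adjusted p at or under 0.05. The offset shrinks the folds of dim probes. The steps were also run on simulated arrays, with planted changes larger than those of all called members but WLS. Recovery of smaller changes was not tested.

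In the platform annotation 21790 probes have 1 symbol, 22004 have none and no probe has several. Replicate numbers pair the arrays: deviations from the mean of a dye orientation correlated across probes with r = 0.786, 0.585, 0.577 and 0.650 between arrays of one number, and with -0.459 to 0.00415 between different numbers. The number of arrays limits the precision. Members and lists were chosen with earlier results of these data known. Named in full are called members, up to 4 others of smallest p, and CTNNB1, LEF1, AXIN2, LRP6, PORCN and WLS; of the other lists, called genes and up to 4 others of smallest p. TCF7, DKK3 and further members were described after their values were seen. Alternatives covered background, normalization, dim probes, the deposited ratios, the replicate block, dye orientation, left-out pool pairs, thresholds and the choice of probe. No genome build is stated for the array's probes in the sources used, and no coordinates or sequences are printed.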

Additional observations from a re-analysis of the deposited data

Results flagged for a closer look

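In 5 of the 51 genes, 1 pool pair's log2 ratio lay far from the other 3 (past Dixon's 95% critical value), which chance gives for about 1 in 20 groups and which held for 5.46% of all genes with a symbol. They were DKK2 in pool pair 1 (-0.15, nearest other 0.06), SFRP1 in pool pair 4 (0.30, nearest other 0.10), SFRP5 in pool pair 3 (0.0651, nearest other -0.02), WNT11 in pool pair 2 (-0.17, nearest other -0.01) and WNT2 in pool pair 3 (0.17, nearest other -0.12). Their probes were above the negative control limit on 3, 6, 7, 0 and 1 of 16 channels, and none of the 5 was called, so the ratios of WNT11 and WNT2 compare signals at or near background.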

How the results depend on the processing

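CTNNB1 and WLS were called under all 16 other settings of the values tested, with log2 fold changes of 0.46 to 1.09 and 1.18 to 1.49. WNT6 lost its call under 1 of them, FZD10 under 3, WNT9B under 5, FZD3 and WNT16 under 6, and AXIN2 and WNT2B under 7, and no called member changed sign. Summed over these settings, called members kept their call 109 times and lost it 35 times. Part of this was fixed in advance. Leaving out normalization between arrays gave the main values again, as that step leaves the log2 ratios unchanged. The limit to probes above the negative controls and the fits with the replicate block kept each log2 fold change and altered only its test. The mean over all probes did the same for every called member but WNT6. With the deposited log2 ratios, 6 of the 9 calls were kept. WNT16, WNT9B and AXIN2 lost theirs, at -0.30, 0.31 and -0.29 (limma adjusted p = 0.101, 0.0764 and 0.137). DKK1, FZD4 and TCF7 were called there. The 5 higher members became 8 on the arrays with ICM in Cy5 alone, 3 to 4 when a pool pair was left out, 3 at an adjusted p limit of 0.01, and 1 with a fold of at least 2 added or at the thresholds of the methods. The 4 lower members became 0 with median centring in place of loess (where 6 were higher), 0 to 3 when a pool pair was left out, 2 with the mean of the local background pixels in place of their median (an alternative chosen after seeing the data), and 0 at an adjusted p limit of 0.01, also with a fold of at least 2, or at the thresholds of the methods. Leaving out a pool pair leaves 3 pool pairs. The cause of the other changes was not tested. Calls among all probes moved as well, from 14.6% in the main analysis to 22.2% on the arrays with ICM in Cy5 alone. They were 8.59% to 13% when a pool pair was left out, 8.7% with median centring and 10.8% with the mean local background. The fits with the replicate block called 20.8% of all probes, or 20.3% with a dye term. With all 8 arrays in 1 fit and the replicate block, 7 members were higher and 7 lower, and with a dye term added 7 and 6, all 9 called members included; APC, DKK1, FZD4 and TCF7 passed in both fits and FZD1 in the first. Among the other pathway genes, TNFRSF19 lost its call with the replicate block (adjusted p = 0.132) and kept it with the dye term added (0.0382). Of the calls of those genes, 228 values were kept, 43 lost their call and 1 was reversed, TNFRSF19 at 0.00978 (adjusted p = 0.933) on the arrays with ICM in Cy3. Their 6 higher and 11 lower calls became 12 and 18 with the replicate block, 11 and 19 with the dye term added, and their lower calls 6 with median centring and 7 with the mean local background. With median centring, 6 of the other pathway genes named as called lost their call: CSNK2A1, CSNK2A2, CTBP2, ID2, TLE4 and TNFRSF19. Of the 51 genes, 10 were above the negative controls on no channel, and differences in these were not measurable; 17 were above them on all 16.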
